A study of Mus musculus with 7 samples.

Results

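The cell cycle genes described here are 40 symbols taken by name for their known roles in the cycle, not by a measured value: 18 genes of G2 and mitosis, 11 of DNA replication and nucleotide synthesis, 3 G1 cyclins, and 8 genes that dividing cells raise but that many other cells also use. The study measured single cells from mammary tumours of PyMT mice, which carry the polyoma middle T oncogene as a transgene and form breast tumours. RNA of sorted cells was read by CEL-seq, which gives each well a barcode, counts molecules and reads the 3′ end, so that a gene's value does not scale with its length. In experiment (ii), cells were sorted by surface E-cadherin (Ecad), an epithelial adhesion protein, from solid tumours (TEpos, Ecad-positive, and TEneg, Ecad-negative) and from blood, as cells labelled circulating tumour cells (BEneg, Ecad-negative, and BEpos, Ecad-positive). Experiment (i) held only wells labelled Ecad-positive tumour cells. All groups came from PyMT mice. No untreated, healthy or non-tumour group is among the samples, and the labels give no strain, age, promoter of the transgene or number of animals. Of the 40 genes, 37 had a row among the 11753 genes of experiment (ii), and Birc5, Bub1 and Tpx2 had none. In libraries 1 and 2 of experiment (i), 39 and 29 of the 40 had a row.

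Cells divide by passing through G1, S, G2 and mitosis, driven by cyclins that bind and switch on cyclin-dependent kinases. D-type cyclins act in G1, replication genes such as Pcna and the Mcm helicase are raised as S phase begins, and mitotic genes such as Ccnb1, Cdc20 and Plk1 peak late in G2 and fall when mitosis ends. Transcripts of the mitotic genes are therefore scarce in a mixed population and concentrated in a few cells, and in breast tumours the protein of Mki67 is a standard stain for dividing cells.

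Wells of at least 500 transcripts were used, which left 71 TEpos, 69 TEneg, 60 BEneg and 20 BEpos wells. They held 189080, 182534, 72985 and 75125 transcripts, or 11172 to 109892 for a population within a library. The median well had 2064 transcripts in TEpos and 1603 in TEneg, against 819 in BEneg and 3803 in BEpos. The largest well, TEneg of library 2, held 61227. The populations were all present in libraries 1 to 4 except BEpos, which was in library 1 only. The libraries used the same 72 well barcodes, with 24 more in library 1 for BEpos, so a shared barcode there marks a plate position and not a shared cell. The luminal, epithelial, neutrophil and leukocyte lists went against the blood labels, while Cdh1, the gene of Ecad, did not in BEneg. Epithelial genes took 0.425 to 0.686% of transcripts in TEpos libraries, 0.181 to 0.407% in TEneg, 0.0653 to 0.135% in BEneg and 0.00934% in BEpos. Cdh1 stood at 3.88 ± 1.59 per 10000 in BEneg, near the 4.16 ± 1.94 of TEneg (SD, n = 4), and had 1 transcript in BEpos. Luminal mammary genes took 4.09 to 5.61% of transcripts in TEpos libraries, 2.13 to 4.16% in TEneg, 0.130% in BEpos and 0.474 to 0.989% in BEneg. The luminal list is Wfdc18, Csn3, Lcn2, Trf, Ltf, Csn2, Lalba and Elf5, and Ltf was also listed as an immature neutrophil gene. Its values in blood are therefore not a measure of luminal cells alone. Csn3 singly stood at 13.67 per 10000 in BEneg and 1.471 in BEpos, against 72.55 in TEneg and 135.5 in TEpos. Neutrophil genes took 0.177 to 0.379% in TEpos, 0.0974 to 0.410% in TEneg, 2.05% in BEpos and 4.57 to 10.4% in BEneg. Of the 9 listed neutrophil markers, 9 were found in BEneg and 9 in TEneg, 8 in TEpos and 6 in BEpos. Leukocyte genes took 1.08 to 2.0% in BEneg and 1.18% in BEpos, against at most 0.0995% in TEpos and 0.121% in TEneg, while Ptprc, the pan-leukocyte gene, was at 0 in TEpos, TEneg and BEpos and at 1 transcript in BEneg. The blood populations are therefore called by their sort names. The part of the neutrophil, leukocyte and luminal markers in each difference between blood and tumour reported here was not tested. In experiment (i), libraries 1 and 2 had 95 and 65 of 96 usable wells, and library 3 had 1 and was not used.

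Promoter sequences are shown for 3 members because many cell cycle genes carry short repeated boxes upstream of their start: Ccnb2 and Ube2c, from the mitotic genes counted in each well, and Hmgb2, which was higher in BEneg. The sequences are the 250 bases before each gene's start from RefSeq, build GRCm38.p6, written 5′ to 3′ on the gene's strand. The end of the RefSeq promoter sequence was found in annotated transcripts for Ccnb2 and Ube2c, but in neither direction for Hmgb2. The start and strand of Hmgb2 thus rest on RefSeq alone. Capitals mark CCAAT boxes, bound by the factor NF-Y (CCAAT or its reverse complement ATTGG), and TTTGAA (or TTCAAA), a sequence of the cell cycle homology region through which mitotic genes are held off outside G2. In Ube2c, a CCAAT and an ATTGG overlap. The regions are chr8:57511593-57511842 on the plus strand for Hmgb2, chr9:70421555-70421804 on the minus strand for Ccnb2 and chr2:164769679-164769928 on the plus strand for Ube2c.
Hmgb2: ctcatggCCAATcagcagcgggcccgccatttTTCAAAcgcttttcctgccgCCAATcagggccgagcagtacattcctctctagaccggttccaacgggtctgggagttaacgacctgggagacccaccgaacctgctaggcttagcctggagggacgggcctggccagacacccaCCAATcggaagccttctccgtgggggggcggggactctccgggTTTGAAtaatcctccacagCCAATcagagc
Ccnb2: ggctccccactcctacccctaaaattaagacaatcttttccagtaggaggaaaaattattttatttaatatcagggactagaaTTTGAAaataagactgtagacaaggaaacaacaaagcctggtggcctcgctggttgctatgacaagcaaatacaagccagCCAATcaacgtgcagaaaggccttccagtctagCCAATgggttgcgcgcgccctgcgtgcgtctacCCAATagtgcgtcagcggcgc
Ube2c: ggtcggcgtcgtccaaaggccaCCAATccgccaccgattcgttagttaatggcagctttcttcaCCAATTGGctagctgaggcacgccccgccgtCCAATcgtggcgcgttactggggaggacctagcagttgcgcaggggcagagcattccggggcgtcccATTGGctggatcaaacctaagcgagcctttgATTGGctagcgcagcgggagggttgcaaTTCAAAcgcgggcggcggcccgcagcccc
Hmgb2 had 4 CCAAT boxes and 2 TTTGAA matches, Ccnb2 had 3 and 1, and Ube2c had 6 and 1. Promoters were matched for 34 of the 40 genes, H2afz through its other name H2az1, and not for Ccna2, Aurkb, Mcm4, Ccnd1, Ccnd2 and Stmn1. A CCAAT box on either strand was present in 15 of 16 mitotic genes, 8 of 10 replication genes and 5 of 7 broadly expressed genes, and in 37.5% of all 27025 genes with a promoter window of this length. TTTGAA on either strand was present in 7 of 16 mitotic genes, 1 of 10 replication genes and 2 of 7 broadly expressed genes, and in 18.3% of all genes. Both motifs were present in 7 of 16 mitotic genes and in 6.45% of all genes. Matches were counted at any position in the window, and in Ccnb2 the TTTGAA lies upstream of all 3 CCAAT boxes. These matches describe the sequence and do not show binding or a working homology region.

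Mitotic transcripts were few. Of the wells, 25 of 71 in TEpos, 29 of 69 in TEneg, 40 of 60 in BEneg and 8 of 20 in BEpos held none, and 34, 33, 18 and 11 held transcripts of 1 or 2 mitotic genes. A well was counted when it held at least 1 transcript of 3 or more of the 15 mitotic genes with a row. This was so for 12 of 71 TEpos wells (16.9%, 95% exact interval 9.05 to 27.7%), 7 of 69 TEneg wells (10.1%, 4.18 to 19.8%), 2 of 60 BEneg wells (3.33%, 0.406 to 11.5%) and 1 of 20 BEpos wells (5.0%, 0.127 to 24.9%). These intervals, like all others here, cover counting error only. By library 1 to 4, TEpos had 2, 4, 4 and 2 such wells and TEneg had 2, 2, 1 and 2. Every TEpos and TEneg library therefore held some, with means of 17.1 ± 7.07% and 10.3 ± 3.02% of wells (SD, n = 4 libraries), and their ranges overlapped. The difference between TEpos and TEneg depended on the limit, with 18 and 17 wells at 2 or more mitotic genes and 8 and 4 at 5 or more. Both BEneg wells were in library 3, and libraries 1, 2 and 4 had 0 of 18, 0 of 18 and 0 of 13, whose upper bounds were 18.5, 18.5 and 24.7%.

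Depth differed between the counted wells and the others. Wells with 3 or more mitotic genes had a median of 3723 transcripts in TEpos and 2477 in TEneg, against 1982 and 1480 in the other wells, and BEneg wells were the shallowest. With each well thinned to 500 transcripts, an average of 2.41 TEpos, 0.98 TEneg and 0.385 BEneg wells and 0 BEpos wells (over 200 draws) still held 3 mitotic genes, with no well left out. These numbers are too small to compare the populations at equal depth. The plot of mitotic genes against transcripts per well shows both features.

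**Figure D1:**
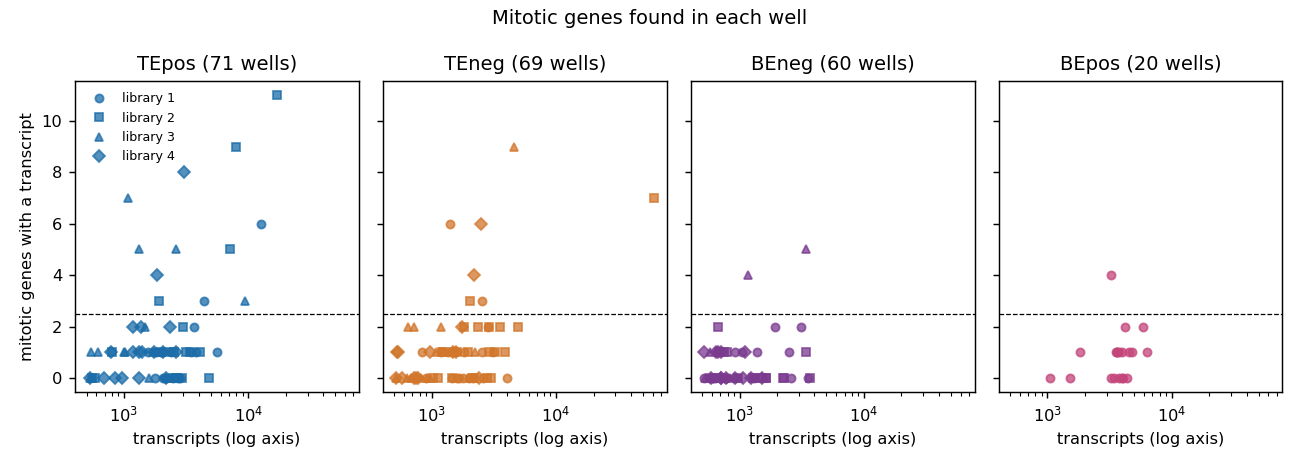
Number of mitotic genes with at least 1 transcript in each well (vertical axis) against the well's transcripts (horizontal log axis), by population, with a shape for each library and a dashed line between 2 and 3 genes. Above the line lie 12 TEpos, 7 TEneg, 2 BEneg and 1 BEpos wells, the richest with 11 mitotic genes among 16913 transcripts.

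The richest wells held a broad set of mitotic genes. In TEpos library 2, a well of 16913 transcripts had 11 of them: Mki67, the DNA-decatenating enzyme Top2a, the mitotic kinase Cdk1, its cyclins Ccnb1, Ccnb2 and Ccna2, the anaphase activator Cdc20, the checkpoint gene Bub3, the centromeric histone Cenpa, the kinase Plk1 and the ubiquitin-conjugating enzyme Ube2c. Another TEpos well of that library held 9 mitotic genes with 46 replication transcripts among 7926 transcripts, the most replication transcripts of any such well of experiment (ii). In TEneg library 3, a well of 4557 transcripts had 9. The 2 BEneg wells had 5 and 4 mitotic genes among 3397 and 1176 transcripts. The first of these held 6 neutrophil and 4 leukocyte transcripts and the second 30 and 13. The BEpos well had 4 mitotic genes among 3274 transcripts, with 369 neutrophil and 65 leukocyte transcripts.

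Single mitotic genes were near the limit of detection. Only 9 of the 15 reached 20 transcripts over all used wells of experiment (ii). Ube2c, which marks mitotic regulators for destruction, had 5, 8, 5 and 6 transcripts in TEpos libraries 1 to 4, with 3, 4, 5 and 2 in TEneg. BEneg had 2, 0, 0 and 0, and BEpos had 2. Per 10000 transcripts, each BEneg library lay below each TEpos library, and the level over all TEpos transcripts was 4.63 times that of BEneg (counting interval 1.15 to 40.4). The gap was narrow, at 2 of 24557 transcripts in BEneg library 1 against 5 of 59608 in TEpos library 1. Top2a had 3, 14, 6 and 0 transcripts in TEpos, 1, 2, 2 and 2 in TEneg and 0, 1, 0 and 0 in BEneg. Mki67 had 2, 4, 5 and 4 in TEpos, 8, 5, 2 and 1 in TEneg and 1, 0, 1 and 2 in BEneg. Neither gene separated the populations, since the libraries overlapped.

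Cdc20 had 0, 8, 3 and 5 transcripts in TEpos libraries, 0, 1, 2 and 1 in TEneg and 0, 0, 0 and 1 in BEneg. Cdk1 had 1, 8, 1 and 4 in TEpos, 0, 3, 3 and 1 in TEneg and 0, 0, 1 and 0 in BEneg. Ccnb1 had 1, 7, 2 and 4 in TEpos, 0, 1, 3 and 2 in TEneg and 0, 0, 2 and 0 in BEneg. Library 2 held the largest TEpos count of each of these 3 genes, and 0 was found for each in BEpos. Ccna2, the cyclin of S and G2, had 1, 10, 0 and 5 in TEpos, 2, 5, 0 and 2 in TEneg and 0, 0, 4 and 0 in BEneg. Cenpf, a kinetochore gene, had 2, 0, 5 and 0 in TEpos, 1, 4, 4 and 1 in TEneg and 1, 1, 1 and 0 in BEneg. Bub3, which also works outside mitosis in splicing, had 5, 6, 1 and 7 in TEpos, 3, 7, 3 and 4 in TEneg and 1, 3, 0 and 2 in BEneg, while BEpos had 13, spread over 11 of 20 wells. Bub3 was thus the mitotic gene most often found in BEpos, at 13 of the 19 mitotic transcripts there. The other 6 mitotic genes with a row, Aurka, Aurkb, Ccnb2, Cenpa, Cenpe and Plk1, had 2 to 15 transcripts in all.

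Replication genes were below the filter of the test and were compared by their libraries. Pcna, the sliding clamp of DNA polymerase, had 7, 23, 4 and 3 transcripts in TEpos libraries 1 to 4, 9, 18, 3 and 12 in TEneg and 2, 4, 7 and 2 in BEneg, with 12 in BEpos. That is 1.71 ± 1.02 per 10000 in TEpos, 3.19 ± 2.59 in TEneg and 2.53 ± 2.30 in BEneg (SD, n = 4), with overlapping libraries. Rrm2, the regulated subunit of ribonucleotide reductase, had 2, 11, 1 and 2 in TEpos, 1, 8, 1 and 1 in TEneg and 0, 1, 4 and 0 in BEneg. Its partner Rrm1 had 3, 6, 2 and 4, then 3, 5, 3 and 2, then 0, 0, 2 and 1. The libraries of both subunits overlapped between populations.

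The Mcm2 to Mcm7 genes encode the replicative helicase. Mcm6 had 1, 5, 2 and 1 transcripts in TEpos, 5, 4, 2 and 3 in TEneg and 1, 0, 2 and 2 in BEneg. Mcm7 had 3, 7, 2 and 2 in TEpos, 2, 4, 2 and 3 in TEneg and 0, 1, 1 and 0 in BEneg, with 6 in BEpos. Mcm2 had 4, 1, 0 and 0 in TEpos, 2, 3, 1 and 4 in TEneg and 2, 0, 1 and 0 in BEneg. These 3 helicase genes overlapped between all populations, and Mcm3, Mcm4 and Mcm5 had 14 to 18 transcripts in all. Tyms and Tk1, which make thymidine nucleotides, had 2 each.

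The G1 cyclins were below the low-count filter of the test, and Ccnd1 transcripts were nearly all in tumour wells. Ccnd1, cyclin D1, a driver of mammary proliferation, had 9, 16, 2 and 1 transcripts in TEpos libraries 1 to 4 and 4, 30, 6 and 3 in TEneg. In BEneg it had 0, 0, 1 and 0, and in BEpos it had 0. Each BEneg library lay below each TEneg library, while BEneg and TEpos overlapped because TEpos library 4 had 0.366 per 10000 and BEneg library 3 had 0.844. Per total transcripts, the level in TEneg was 17.6 times that in BEneg (counting interval 3.0 to 710.5) and that in TEpos 10.8 times (1.79 to 442), with 1 BEneg transcript behind both. In the edgeR fit without the low-count filter, Ccnd1 was lower in BEneg than in TEneg (log2 fold change -3.60, SE 1.01, adjusted p = 0.0123) and than in TEpos (-3.18, SE 1.05, adjusted p = 0.0486). That fit also lowered the 6 members that pass the filter, such as H2afz in BEneg against TEpos from 0.55 to 0.03. The call against TEpos is close to the limit and may depend on this shift. Of the TEneg wells, all held 44 Ccnd1 transcripts, and those without the large well held 29. Ccnd2, cyclin D2, had 1, 1, 2 and 0 transcripts in TEpos, 1, 6, 3 and 5 in TEneg and 0, 1, 1 and 0 in BEneg, and 11 over 8 of 20 BEpos wells. Per 10000 transcripts, Ccnd2 stood at 1.47 in BEpos, within the 0.269 to 2.92 of the TEneg libraries. In BEpos, T, NK and B cell genes took 0.332% of transcripts against at most 0.0408% in any library of the other populations, and the part of those markers was not tested. Ccne1, cyclin E1, had 2 transcripts in all.

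The 8 broadly expressed genes gave the only members that could be tested. Hmgb2, H2afz, Stmn1, Tuba1b, Tubb5 and Ran were among the 490 genes that passed edgeR's low-count filter over TEpos, TEneg and BEneg, and the other 31 members with a row did not pass. The 3 comparisons share samples, so each is given by its own values. Called means a Benjamini-Hochberg adjusted p under 0.05 over all 490 genes. These are sums over wells, in which fewer cells of a type and less RNA per cell cannot be told apart.

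Hmgb2 was the member that rose in BEneg. It encodes a chromatin protein that bends DNA and is raised in dividing cells. The BEneg libraries 1 to 4 held 22, 25, 18 and 15 of its transcripts, against 6, 10, 8 and 9 in TEneg and 6, 22, 15 and 14 in TEpos. Per 10000 transcripts, BEneg libraries held 9.02, 9.95, 15.4 and 13.5, TEneg libraries 1.62, 0.913, 4.43 and 5.26, and TEpos libraries 1.01, 3.10, 5.0 and 5.14. All 4 BEneg libraries lay above all 8 tumour values. Means were 11.98 ± 3.01 in BEneg, 3.06 ± 2.12 in TEneg and 3.56 ± 1.94 in TEpos (SD, n = 4).

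The log2 fold change of Hmgb2 was 2.53 (SE 0.39, edgeR adjusted p = 4.775e-06) against TEneg and 2.17 (SE 0.35, adjusted p = 8.357e-06) against TEpos, higher in 4 of 4 libraries in both. It was called in 12 of 12 alternative settings of each comparison. BEpos, in library 1 only, held 20 Hmgb2 transcripts, 2.67 per 10000 (exact Poisson interval 1.63 to 4.11), and the BEneg value of the same library was 3.37 times that (counting interval 1.75 to 6.50). This ratio of Ecad-negative to Ecad-positive blood wells rests on 1 library and has no replicate.

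Hmgb2 had a transcript in 35 of 60 BEneg wells (58.3%), against 21 of 71 TEpos wells (29.6%) and 18 of 69 TEneg wells (26.1%). Of these Hmgb2 wells, 25 in BEneg, 3 in TEpos and 6 in TEneg had 0 mitotic genes, as did 40, 25 and 29 of all wells. The counts for all wells include the Hmgb2 wells. No link between Hmgb2 and the mitotic genes, nor the lack of one, is read from them. The share of wells with Hmgb2 was higher in BEneg although its wells were shallower. Outside the wells with 3 or more mitotic genes, Hmgb2 stood at 9.72 per 10000 in BEneg and 1.86 in TEpos. Neutrophil markers were also higher in BEneg than in the tumour populations, and their part in the result was not tested. Mean neutrophil shares were 0.246% in TEpos and 7.87% in BEneg, with Hmgb2 at 3.56 and 11.98 per 10000. BEpos, in library 1 only, had 2.05% and 2.67 per 10000. Whether Hmgb2 follows these markers was not tested. S100a9, a neutrophil gene, had a transcript in 60 of 60 BEneg wells and also in 62 of 71 TEpos and 58 of 69 TEneg wells, so that presence of a transcript alone does not mark a cell's type here.

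Stmn1 moved the other way. It encodes stathmin, which destabilises microtubules and is abundant in dividing cells. It had 17, 27, 16 and 11 transcripts in TEpos libraries 1 to 4, 9, 15, 7 and 10 in TEneg and 0, 1, 1 and 0 in BEneg, with 7 in BEpos. All 4 BEneg libraries lay below all 8 tumour values, with 0.310 ± 0.402 per 10000 against 3.38 ± 1.94 in TEneg and 4.01 ± 1.02 in TEpos (SD, n = 4).

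The fitted log2 fold change of Stmn1 in BEneg was -2.97 (SE 0.87, edgeR adjusted p = 0.00638) against TEneg and -3.34 (SE 0.81, adjusted p = 0.00114) against TEpos. Per total transcripts, the level was 8.20 times higher in TEneg than in BEneg (counting interval 2.13 to 69.95) and 13.9 times higher in TEpos (3.71 to 116.9), with 2 BEneg transcripts behind both ratios. The gene did not pass the low-count filter without library 2 or among wells of at least 1000 transcripts, and it was called in 10 of 10 settings of each comparison that tested it. Stmn1 had a transcript in 34 of 71 TEpos, 23 of 69 TEneg, 2 of 60 BEneg and 6 of 20 BEpos wells, and both BEneg wells with Stmn1 also held Hmgb2. In TEpos and TEneg, 16 and 10 wells held both genes.

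**Figure D2:**
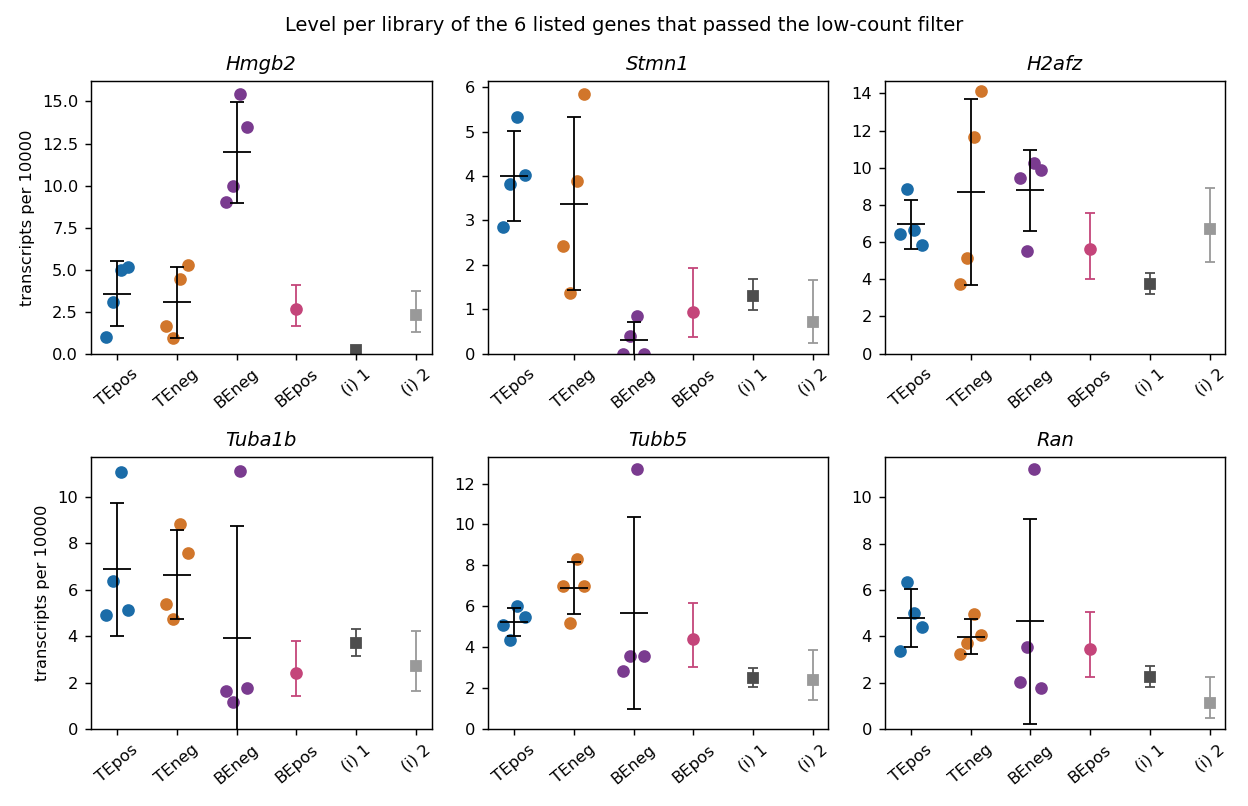
Transcripts per 10000 of the 6 tested members, with a point for each library of TEpos, TEneg and BEneg (bars: mean ± SD, n = 4) and single values with exact 95% counting intervals for BEpos and for libraries 1 and 2 of experiment (i). BEneg lies above the tumour populations for Hmgb2 (9.02 to 15.4) and below them for Stmn1 (0 to 0.844), and a single BEneg library stands high for Tuba1b, Tubb5 and Ran.

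H2afz, the histone variant H2A.Z, did not follow either gene. It had 38, 64, 20 and 16 transcripts in TEpos, 14, 57, 21 and 24 in TEneg and 23, 14, 12 and 11 in BEneg, with 42 in BEpos. Its levels of 6.95 ± 1.31, 8.68 ± 5.0 and 8.79 ± 2.19 per 10000 in TEpos, TEneg and BEneg (SD, n = 4) overlapped. It was not called against TEneg (log2 fold change 0.38, SE 0.34, edgeR adjusted p = 0.401) or TEpos (0.55, SE 0.33, adjusted p = 0.183). Without library 2 the latter was called (0.98, adjusted p = 0.0423, over all settings 0.0423 to 1.0).

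Tuba1b, an alpha tubulin, and Tubb5, a beta tubulin, build microtubules and the spindle. Tuba1b had 29, 46, 33 and 14 transcripts in TEpos, 20, 52, 16 and 13 in TEneg and 4, 3, 13 and 2 in BEneg, with 18 in BEpos. BEneg libraries 1, 2 and 4 held 1.18 to 1.79 per 10000, below every tumour library, and library 3 held 11.1, above every tumour library. A single well gave 10 of the 13 Tuba1b transcripts of library 3, the BEneg well of 3397 transcripts with 5 mitotic genes. Tuba1b was not called in BEneg (log2 fold change -0.88, SE 0.39, edgeR adjusted p = 0.0787 against TEneg, and -0.82, SE 0.38, adjusted p = 0.0787 against TEpos). Without library 3 it was called lower in both (-1.66, adjusted p = 0.00886, and -1.51, adjusted p = 0.0133). Over all settings its adjusted p ran from 0.00224 to 0.385 and from 0.00767 to 0.564.

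Tubb5 had 30, 31, 18 and 15 transcripts in TEpos, 26, 57, 15 and 12 in TEneg and 7, 9, 15 and 4 in BEneg, with 33 in BEpos. Library 3 again stood high in BEneg, at 12.7 per 10000 against 2.86 to 3.59 in the other libraries, and that well held 6 of its 15 transcripts. The log2 fold change was -0.27 (SE 0.33, edgeR adjusted p = 0.559) against TEneg and 0.24 (SE 0.33, adjusted p = 0.590) against TEpos. Ran, the small GTPase of nuclear transport and spindle assembly, had 20, 46, 15 and 12 transcripts in TEpos, 12, 41, 9 and 7 in TEneg and 5, 9, 13 and 2 in BEneg, with 26 in BEpos. It was not called (0.24, SE 0.40, edgeR adjusted p = 0.684, and 0.04, SE 0.38, adjusted p = 0.948). Both genes overlapped between the populations.

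Cks1b and Cks2 encode small partners of the cyclin-dependent kinases and were below the filter. Cks1b had 6, 14, 3 and 2 transcripts in TEpos, 5, 11, 2 and 2 in TEneg and 0, 1, 2 and 0 in BEneg, with 0 in BEpos. Cks2 had 6, 8, 3 and 5 in TEpos, 0, 3, 1 and 3 in TEneg and 2, 1, 5 and 0 in BEneg, with 2 in BEpos. Neither separated the populations.

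Ecad-negative and Ecad-positive tumour cells did not differ detectably in any tested member. The log2 fold changes of TEneg against TEpos were 0.51 for Tubb5 (SE 0.28, edgeR adjusted p = 0.353), -0.37 for Stmn1 (SE 0.42, adjusted p = 0.676) and -0.36 for Hmgb2 (SE 0.41, adjusted p = 0.676). For H2afz, Ran and Tuba1b they were 0.17, -0.20 and 0.06, with adjusted p of 0.801 to 0.940. Tubb5 was higher in TEneg in 4 of 4 libraries and Ran was lower in 4 of 4, with overlapping groups. edgeR called 0 of 6 members, with 0 at an unadjusted p under 0.05, and DESeq2 and limma on well means also called 0, against a background of 6.33% of the 490 genes called in that comparison (4.69% higher and 1.63% lower). Of the 25 members of at least 20 transcripts, 0 had TEneg and TEpos libraries that did not overlap, against 3.62% of 4392 such genes higher and 2.25% lower.

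In BEneg against TEneg, edgeR called 2 of 6 members, Hmgb2 higher and Stmn1 lower, against 41% of all genes tested (23.9% higher and 17.1% lower). In BEneg against TEpos, it called the same 2 genes against 48.2% (27.1% higher and 21% lower). These shares are near the background, and nothing about the members is read from them. With transcript totals in place of TMM scaling, the median log2 fold change of all genes moved from -0.05 to -0.49 against TEneg and from -0.08 to -0.48 against TEpos. The calls then split into 99 higher and 187 lower against TEneg and 110 and 188 against TEpos, where TMM scaling gave 117 and 84, and 133 and 103. Hmgb2 and Stmn1 kept their direction and their calls under that scaling, and Tuba1b was called lower in both, with Ran in both and H2afz and Tubb5 in 1 comparison each changing sign without a call.

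Of the 25 members of at least 20 transcripts, Hmgb2 was above and Stmn1 and Ccnd1 below TEneg in all BEneg libraries without overlap, where 6.51% of 4392 genes were higher and 9.88% lower. Against TEpos, Hmgb2 was above and Stmn1 and Ube2c below, where 7.83% were higher and 11.1% lower. These counts too are near the background. Without the low-count filter, edgeR called 3 of 37 members against TEneg (Hmgb2, Stmn1 and Ccnd1) and 4 against TEpos (these and Tuba1b), with 4.03 and 5.08% of 11431 genes called (1.68 and 2.58% lower), and 0 of 37 in TEneg against TEpos, where 0.866% were called (0.411% lower) and 7 of 37 members, beside 580 of all 11431 genes, had an unadjusted p under 0.05. Of these 7, Top2a, Cdc20, Cenpa, Plk1, Mcm5 and Cks2 were lower in TEneg and Ccnd2 higher, and none was called. The median log2 fold change in that fit was -0.69 over the 37 members and 0.03 over all genes. The 6 members tested with the filter all had lower log2 fold changes without it, in each of the 3 comparisons. In TEneg against TEpos, H2afz went from 0.17 to -0.18 and Tubb5 from 0.51 to 0.16. With the filter, the median of the tested members was -0.07, so no fall of the members in TEneg is read from these medians.

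**Figure D3:**
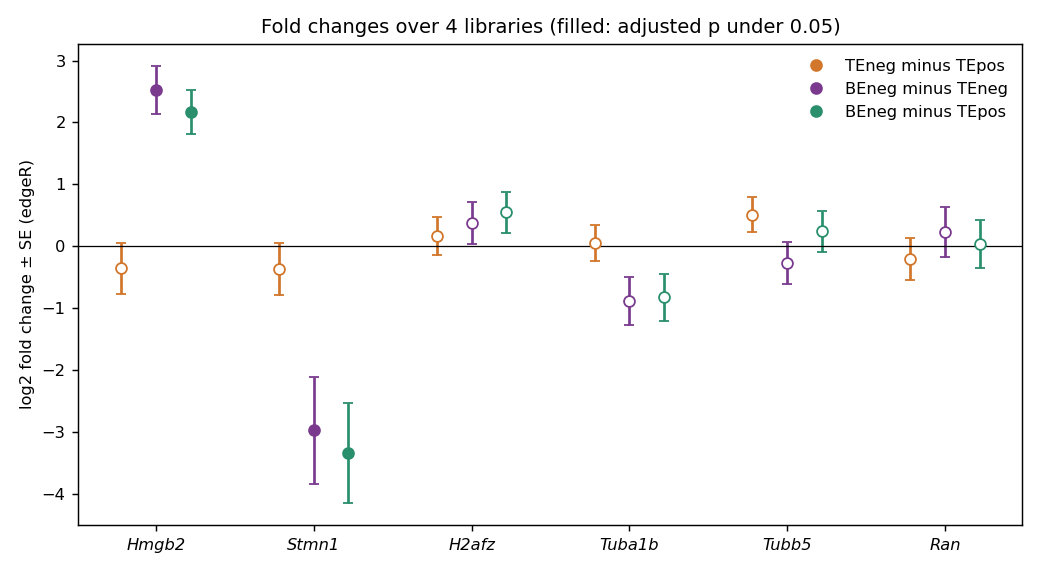
Log2 fold changes with standard errors (edgeR, 4 libraries) of the 6 tested members in the 3 comparisons, with filled points for adjusted p under 0.05. Hmgb2 lies at 2.53 and 2.17 and Stmn1 at -2.97 and -3.34 in BEneg against the tumour populations, and all points of TEneg against TEpos are open.

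The summed share of each list was also compared. Mitotic genes took 0.108 ± 0.0510% of TEpos transcripts, 0.0866 ± 0.0534% of TEneg and 0.0537 ± 0.0381% of BEneg (SD, n = 4), and 0.0254% of BEpos (exact interval 0.0152 to 0.0395%). Replication genes took 0.0579 ± 0.0299, 0.0841 ± 0.0539 and 0.0677 ± 0.0690%, and 0.0454% of BEpos. G1 cyclins took 0.0148 ± 0.00857, 0.0357 ± 0.0165 and 0.00731 ± 0.0121%, and 0.0147% of BEpos. The libraries of the 3 populations overlapped in each list. Broadly expressed genes took 0.338 ± 0.0645, 0.344 ± 0.127 and 0.372 ± 0.203%, and 0.198% of BEpos. All 40 genes together took 0.519 ± 0.115% of TEpos, 0.551 ± 0.229% of TEneg, 0.501 ± 0.322% of BEneg and 0.283% of BEpos.

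The summed level varied between the libraries of a population. The share of all 40 genes ran from 0.353 to 0.599% over TEpos libraries, from 0.332 to 0.790% over TEneg and from 0.309 to 0.979% over BEneg, with library 3 the highest of BEneg. The BEneg well of 3397 transcripts held 55 of the 80 transcripts of broadly expressed genes and 13 of the 20 replication transcripts of BEneg library 3. Its Hmgb2 count was 13 of the 18 there, and without library 3 Hmgb2 stayed called in both blood comparisons.

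**Figure D4:**
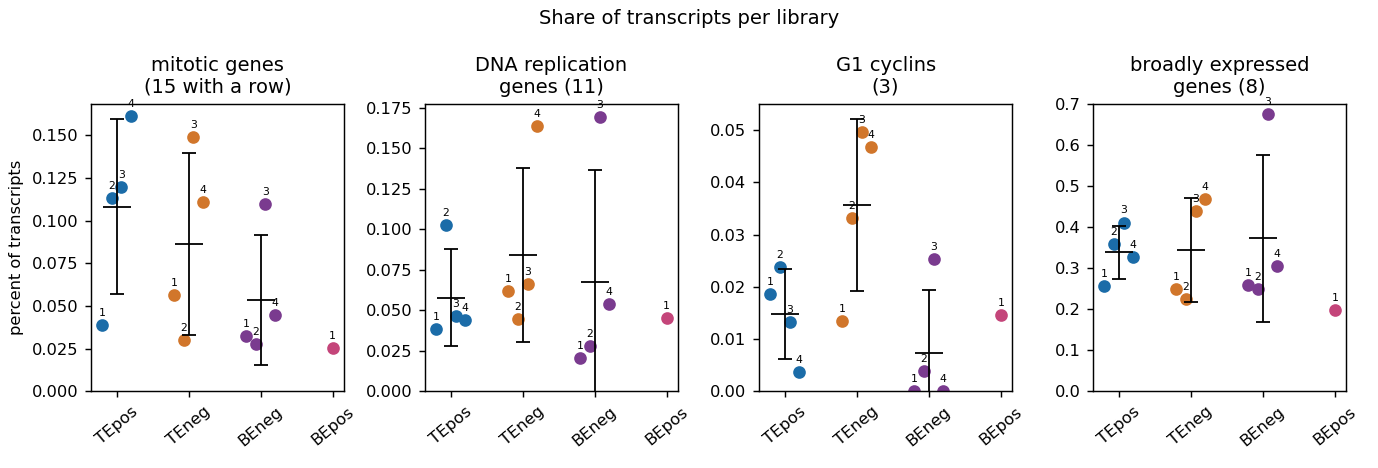
Percent of each library's transcripts taken by the 4 lists, with a numbered point for each library and bars for mean ± SD (n = 4 in TEpos, TEneg and BEneg, 1 library in BEpos). Points of the 3 replicated populations overlap in every list, and BEneg library 3 stands highest of its population, at 0.110% for mitotic and 0.675% for broadly expressed genes.

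Broadly expressed genes were higher in the wells that carried mitotic genes. Wells were split by the mitotic genes themselves, so this is given as a description with no test. In TEpos, the 12 wells with 3 or more mitotic genes held 37.2% of all transcripts. They held 56.7% of the replication transcripts, 61.5% of Hmgb2, 52.4% of Stmn1, 56.3% of H2afz, 61.6% of Tuba1b and 46% of Tubb5. G1 cyclins were at 24.2%, below the wells' share of transcripts. The summed broadly expressed genes were higher in these wells in 4 of 4 TEpos libraries, as were H2afz and Tuba1b singly, Hmgb2 and Stmn1 in 3 and replication genes in 2.

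In TEneg, the well of 61227 transcripts counted among the 7 and set their values. With it, these wells held 41.9% of all transcripts and 45.6% of Hmgb2, 39.2% of Stmn1 and 34.9% of the replication transcripts. Without it they held 12.5% of all transcripts, 42.1% of Hmgb2, 30.7% of Stmn1, 25.2% of H2afz, 24% of replication transcripts, 13.8% of Tuba1b and 11.6% of the G1 cyclins. In library 2, which has the large well, the broadly expressed genes were lower in wells with 3 or more mitotic genes, and in the other 3 TEneg libraries they were higher. In BEneg, the 2 such wells held 6.27% of all transcripts, 17.8% of Hmgb2 and 45.9% of Tuba1b.

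**Figure D5:**
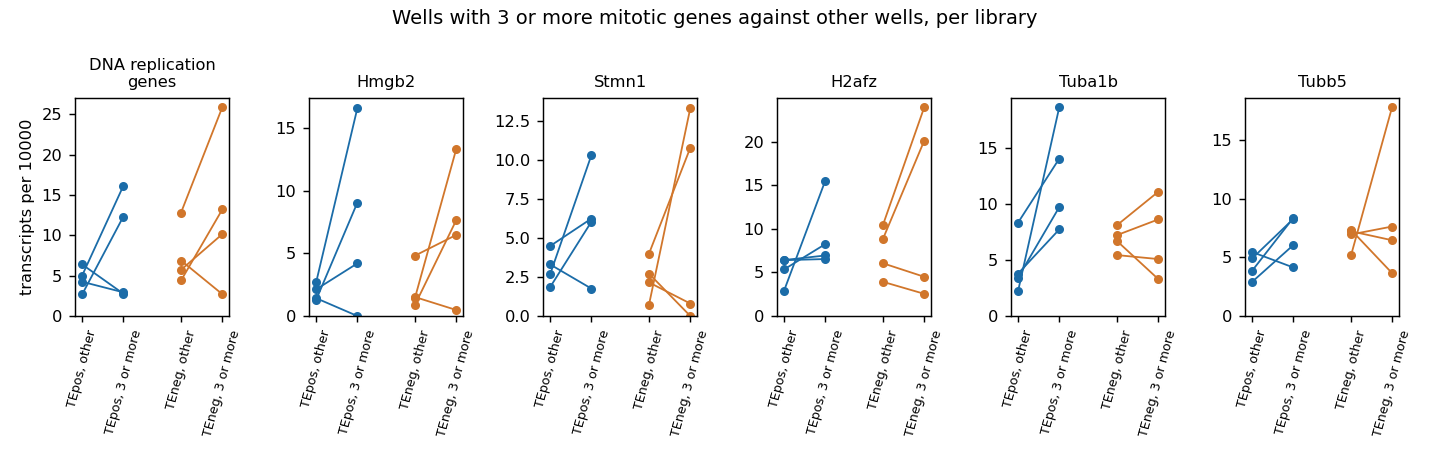
Transcripts per 10000 in wells with 3 or more mitotic genes and in the other wells of the same library, for TEpos and TEneg, with a line for each library. Lines for H2afz and Tuba1b rise in all 4 TEpos libraries, by little for H2afz in libraries 1 and 3. Those of the replication genes rise in 2 of 4 in TEpos and 3 of 4 in TEneg.

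Beside the 40 members, 97 other cell cycle genes were listed, of which 81 had a row and 9 passed the filter. In TEneg against TEpos, edgeR called 0 of the 9, with 2 at an unadjusted p under 0.05, and DESeq2 called 0. In BEneg against TEneg it called 1, higher, and 0 lower. Btg1, an antiproliferative gene also high in resting lymphocytes, had 36, 43, 7 and 24 transcripts in BEneg, 26, 67, 14 and 9 in TEneg, 47, 38, 11 and 19 in TEpos and 97 in BEpos. Its log2 fold change was 1.36 (SE 0.30, edgeR adjusted p = 0.000427) against TEneg and 1.63 (SE 0.29, adjusted p = 3.06e-05) against TEpos, called in 11 of 12 settings of each, the exception being wells of at least 1000 transcripts. Per 10000, BEneg library 3 held 5.92 Btg1 transcripts, below the 7.73 of TEneg in that library, and the other 3 BEneg libraries held 14.8 to 21.6.

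In BEneg against TEpos, edgeR called 4 of the 9, with Btg1, Hmgb1 and Cdc42 higher and Ywhae lower. Hmgb1, the close relative of Hmgb2, rose by 0.87 (SE 0.31, adjusted p = 0.0209), called in 6 of 12 settings. Cdc42, a GTPase of cell polarity, rose by 0.92 (SE 0.38, adjusted p = 0.0499) in 4 of 12, and Ywhae, a 14-3-3 protein that binds phosphorylated cycle regulators, had -0.57 (SE 0.24, adjusted p = 0.0463), called in 3 of 12. Cdc42 and Ywhae were thus not called in most settings. The 4 of 9 and the 1 of 9 are not above the 48.2% and 41% of all genes tested that were called in the same comparisons. Ptma, Hmgn2, Ccni, Skp1a and Btg2 were not called in the main fit. In BEneg against TEpos, Btg2 and Ptma were each called in 3 of 12 other settings and Skp1a in 2. Against TEneg, Ptma, Skp1a and Ccni were each called in 1 setting, as was Btg2 in TEneg against TEpos.

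Experiment (i) was deposited in separate tables, so its values stand beside those of experiment (ii) with no test. Its usable wells held 438102 transcripts in library 1 and 69976 in library 2. Mitotic genes took 0.0321% (exact interval 0.0271 to 0.0380%) and 0.0373% (0.0243 to 0.0544%), and 7 of 95 and 1 of 65 wells held 3 or more of them. A library 1 well of 6680 transcripts held 13 mitotic genes, among them Birc5 and Bub1, which have no row in experiment (ii), so the counts of the experiments rest on different genes. The 7 wells of library 1 held 14.3% of its transcripts and 51.8% of its replication transcripts.

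The 2 libraries of experiment (i), both labelled Ecad-positive tumour cells, differed in single members. Hmgb2 stood at 0.228 per 10000 (0.110 to 0.420) in library 1 and 2.29 (1.31 to 3.71) in library 2. Ccnd2 had 0 of 438102 transcripts in library 1, where it had no row, and 3.0 per 10000 in library 2, while Ccnd1 stood at 2.69 and 1.0. H2afz stood at 3.74 and 6.72, Stmn1 at 1.30 and 0.715 and Tuba1b at 3.70 and 2.72. Markers differed with them: monocyte and macrophage genes took 0.0336 and 1.07%, leukocyte genes 0.0117 and 0.374%, and basal and myoepithelial genes 0.00918 and 0.365%. Luminal mammary genes took 2.83 and 1.30%, and epithelial genes 0.947 and 0.381%. Sparc stood at 0.776 and 47.9 per 10000, beside 3.48 in TEpos and 37.8 in TEneg. Cdh1, the gene of Ecad, stood at 11.05 and 8.29, beside 5.90 in TEpos and 4.16 in TEneg. The part of these markers was not tested.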

How the data were processed

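The labels' protocols name Trizol sorting, CEL-seq and a NextSeq500. The values deposited by the authors are estimated counts, 1 for each gene in each well, each equal to 256·ln(256/(256 − k)) for a whole k (largest distance 3.1e-13). BWA 0.6.2-r126 and the build mm10 are named in the submitters' processing notes. The counting step, its strand setting and its rule for reads shared between gene copies are not given in the sources used here, so tubulin and histone values are uncertain where copies share sequence. The members and lists were chosen with earlier results of these data known.

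Spike-ins (73) were left out. Wells were assigned by the deposited barcode table, each meant for 1 cell, so no doublet caller was run. Printed transcripts are sums of estimated counts rounded to whole numbers. Sums per library and population (at least 3 wells) of TEpos, TEneg and BEneg entered 1 fit of edgeR 4.0.16 (quasi-likelihood, TMM, filterByExpr, Benjamini-Hochberg) in R 4.3.3, with library as a block. The procedure was run on data simulated from edgeR's own model, with changes in TEneg only and no library effect. There it called 1.59% of 251 unchanged genes in TEneg against TEpos. That run does not cover the blood comparisons or differences between libraries. Populations share libraries in the barcode table. Residuals of 1 library correlated at 0.0587 to 0.330 between populations. Whether the libraries stem from different mice is not in the labels, and p-values therefore cover the spread between libraries only, which may be technical. Sums of 1 population differed beyond sampling noise (chi-square per degree of freedom 1.74 to 5.64). Alternatives were DESeq2 1.42.0 (test and size factors), limma 3.58.1 on well means with a pseudocount of 1, totals only, no filter, no block, wells of at least 1000 transcripts, each library left out, and the large TEneg well left out. Intervals are exact 95% Clopper-Pearson or Poisson intervals (scipy 1.17.1). Thinning used 200 draws.

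All members are accounted for. Those that passed the filter have full statistics, those of at least 20 transcripts have values per library, and other cell cycle genes are named with values where called.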

Additional observations from a re-analysis of the deposited data

Results flagged for a closer look

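Of 33 groups of 4 libraries examined, 7 had a library far from the other 3, judged by its gap to the nearest library as a part of the whole range. The limit used flags about 1 in 20 groups of independent, normally distributed values. Many groups here are small counts, and some share genes and wells, so 7 of 33 is not read against that rate. In TEpos, the replication genes took 0.1025% of library 2 against 0.0387 to 0.0465% of the others, and 46 of the 74 replication transcripts there came from a well with 9 mitotic genes.

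The other 6 were in BEneg, and 5 of them in library 3. Tuba1b stood at 11.12 per 10000 in library 3 against 1.18 to 1.79 in the others, and Tubb5 at 12.72 against 2.86 to 3.59. The broadly expressed genes took 0.675% of library 3 against 0.250 to 0.306%, and the G1 cyclins 0.0253% against 0 to 0.00395%. Wells with 3 or more mitotic genes made up 18.18% of library 3 and 0% of the others. H2afz was low in BEneg library 2, at 5.54 per 10000 against 9.47 to 10.2.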

How the results depend on the processing

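The number of genes called in TEneg against TEpos, 31, was 99 with no low-count filter, 20 with no replicate block, 17 with at least 1000 transcripts per well, 19 on well means, 55 without the large TEneg well and 19 to 42 with a library left out (19 without library 1). Against TEneg, 201 calls in BEneg became 461 with no filter and 111 at 1000 transcripts, and against TEpos 236 became 581 and 125. With no replicate block they were 187 and 213, and the member calls were the same. Members called, 2 in each, became 1 at 1000 transcripts in both and 4 with no filter against TEpos. With a library left out they were 1 to 3 against TEneg, 1 without library 2, where Stmn1 did not pass the filter. The fit tested 490 genes, 375 at 1000 transcripts, 11431 with no filter and 480 to 586 with a library left out; the cause of the other shifts was not tested.

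Wells with 3 or more mitotic genes, thinned to 500 transcripts, numbered 2.41 (TEpos), 0.98 (TEneg), 0.385 (BEneg) and 0 (BEpos). Without thinning, wells with 2 or more numbered 18 (TEpos), 17 (TEneg), 5 (BEneg) and 3 (BEpos), and with 5 or more 8, 4, 1 and 0.

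Signs changed for members that were not called. In TEneg against TEpos, H2afz was -0.18 with no filter and -0.13 to 0.57 with a library left out, Hmgb2 -0.58 to 0.24, Ran 0.0073 without the large well and -0.29 to 0.054, and Tuba1b -0.29 with no filter and -0.033 to 0.22. Against TEneg, H2afz in BEneg was -0.050 with totals, -0.26 on well means and -0.042 to 0.66 with a library left out, and Ran -0.17, -0.46 and -0.23 to 0.47. Against TEpos, with totals, no filter and on well means, Ran was -0.34, -0.48 and -0.51 and Tubb5 -0.13, -0.28 and -0.24, and with a library left out -0.50 to 0.39 and -0.19 to 0.45, below 0 only without library 3. Tuba1b was called lower in 4 settings of each blood comparison. Of single-gene results, 179 kept sign and call, 22 changed sign and 9 gained a call; of counts and shares, 110 were within their limits and 24 were not. Depth limits all mitotic and replication genes, none of which passed the filter.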
